A study of Homo sapiens with 6 samples.

Results

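DND-41 is an established human cell line grown from a T-cell leukaemia of the acute lymphoblastic kind, in which immature T cells multiply, and its open chromatin was set against that of CCRF-CEM, KOPT-K1, HBP-ALL, TALL-1 and MOLT-4, which are lines of the same disease. All 6 lines were cultured in RPMI-1640 with serum, no drug or other agent is named in the labels, and each line gave 1 ATAC-seq library, so no value here has a replicate error and a difference between lines cannot be told apart from a difference between preparations. The authors' peak lists were called per library. Overlapping intervals of the 6 lists on chromosomes 1 to 22 and X were merged into 40110 regions. Members were chosen by the peak calls themselves: 1428 regions held an interval of DND-41 and of no other line, and 221 regions held intervals of all 5 other lines and none of DND-41.

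ATAC-seq marks open chromatin because the Tn5 transposase inserts its adapters where DNA is not covered by nucleosomes, mostly at promoters, enhancers and other sites bound by transcription factors. Promoters of widely used genes tend to be open in every cell type, whereas enhancers differ more between cell types and between leukaemias with different driver genes. DND-41 is known for activating NOTCH1 mutations and for a rearrangement that switches on TLX3, a homeobox gene that is silent in normal thymocytes. The driver genes of the other lines were not compared, and neither feature is taken here as particular to DND-41. The part of either feature in the regions called in DND-41 alone was not tested. Loci are given by position in genome build hg19, 1-based, because no annotation or sequence of that build was used here; the regions therefore carry no gene names and no bases are shown.

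DND-41 had the lowest count of both kinds among the 6 lines. Its 1428 line-only regions were 8.04% of its 17766 regions (exact 95% binomial interval 7.64% to 8.45%), against 8.34% in KOPT-K1, 9.12% in TALL-1, 9.62% in MOLT-4, 21.3% in HBP-ALL and 28.9% in CCRF-CEM. They made up 3.56% of all merged regions. The 221 regions that DND-41 alone lacked were 2.38% of the 9274 regions found in all 5 other lines (2.08% to 2.71%), and 0.551% of all merged regions. The corresponding shares were 2.43% for MOLT-4, 2.97% for KOPT-K1, 3.17% for HBP-ALL, 6.51% for TALL-1 and 9.69% for CCRF-CEM. The intervals cover counting error only, and they overlap between DND-41 and KOPT-K1 for the line-only share and between DND-41 and both MOLT-4 and KOPT-K1 for the lacking share. The lists were of unequal length, from 16507 to 22367 intervals with 17898 in DND-41. A relative tag depth, the lowest background in a list divided by its narrowest interval and set to 1 in CCRF-CEM, was 1.70 in DND-41 and ran to 2.096 in TALL-1, so that 2 lines were deeper than DND-41 and 3 shallower. The counts that follow describe calls, and a missing call is not a measurement of closed chromatin.

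**Figure D1:**
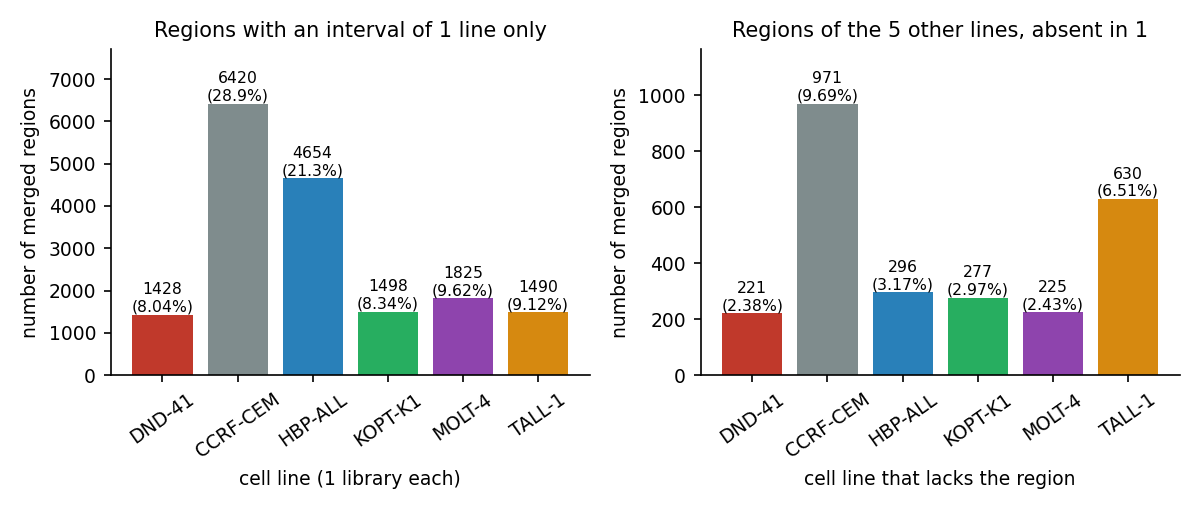
Number of merged regions held by 1 line only (left) and number of regions held by the 5 other lines and lacking in 1 (right), for each cell line, with the share of the line's own regions or of the regions of its 5 counterparts in brackets. DND-41 has the shortest bar in both panels, at 1428 and 221, and CCRF-CEM the tallest, at 6420 and 971.

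Regions just outside both rules involved 1 further line. DND-41 shared 467 regions with CCRF-CEM alone, 406 with KOPT-K1 alone, 258 with HBP-ALL alone, 233 with TALL-1 alone and 229 with MOLT-4 alone. DND-41 together with TALL-1 lacked 256 regions of the remaining 4 lines, and DND-41 together with CCRF-CEM lacked 210. Together with KOPT-K1, HBP-ALL and MOLT-4 it lacked 99, 86 and 71. The number of regions that DND-41 alone lacked was 432 without CCRF-CEM and 479 without TALL-1 in place of 221, and these 2 lines were also those with the most regions lacking on their own account.

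The border of the rule ran through regions of like position and strength. The 3 members closest to a region of another line lay 0, 4 and 8 bp from it, and just outside the rule the 3 smallest overlaps of a DND-41 interval with that of a single other line measured 2, 9 and 11 bp. Within 100 bp of another line's region lay 14 members. The 3 weakest members had −log10 p values of 5.002, 5.005 and 5.007 in the DND-41 list, at the floor of the deposited lists, and the weakest counterpart that kept a DND-41 region out of the set had 5.00045. Of the 221 lacking regions, 1 lay within 100 bp of a DND-41 region, at 90 bp.

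DND-41-only regions were narrow, weak and mostly of a single summit. The DND-41 interval in them had a median width of 292 bp (quartiles 241 and 379), against 696 bp (540 and 880) in the regions of all 6 lines. The narrowest interval in the DND-41 list was 202 bp wide. The median pileup, which counts the tags that overlap the summit and was recovered from the authors' fold and p-value, was 13 tags (10 and 18) in DND-41-only regions and 40 tags (28 and 58) in regions of all 6 lines. Several summits were called in 43 of the 1428 intervals (3.01%), against 26.6% of those in regions of all 6 lines. The calls in the same lists chose the members, so these values describe the set and no test is given.

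Between these extremes DND-41 intervals formed a graded series. Median width was 314, 347, 399 and 467 bp where 2, 3, 4 and 5 lines shared the region, and median pileup was 15, 17, 19 and 22 tags. The step to regions of all 6 lines was the largest, for both measures. Median fold enrichment over the local background followed the same order, from 5.14 in DND-41-only regions to 8.39 in regions of all 6 lines. The line-only intervals of the other lines had median widths of 282 bp in TALL-1 to 321 bp in CCRF-CEM and median pileups of 12 to 14 tags. DND-41-only regions were thus not set apart by width or by unscaled pileup. These tags are not scaled for the relative tag depth, which ran from 1 in CCRF-CEM to 2.096 in TALL-1.

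**Figure D2:**
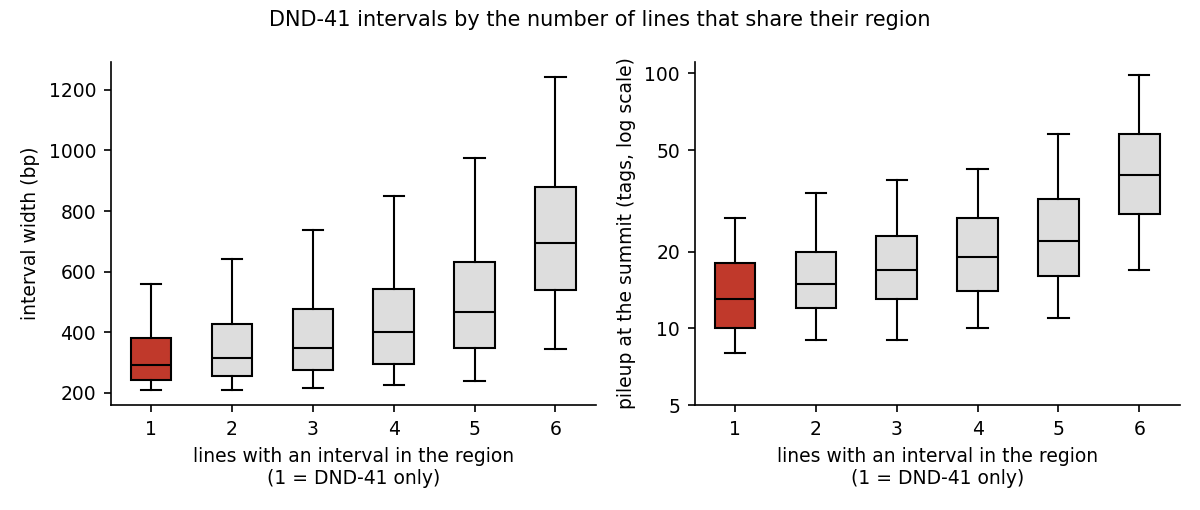
Width in bp (left) and summit pileup in tags on a log scale (right) of DND-41 intervals, by the number of lines with an interval in the same merged region; boxes show quartiles and medians, whiskers the 5th and 95th percentiles. The red box, intervals of DND-41 only, is lowest in both panels with medians of 292 bp and 13 tags, and both measures climb with every added line.

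Most members had a −log10 p under 10 in the DND-41 list, and a small number were strong. Of the 1428, 455 (31.9%) had a −log10 p under 7 in the DND-41 list, 511 lay from 7 to 10, 399 from 10 to 20 and 63 (4.41%) at 20 or above. Across these classes the median pileup was 9, 13, 18 and 32 tags and the median width 263, 296, 319 and 490 bp. The stronger members also lay farther from the regions of all 6 lines, with median distances of 92.8, 95.5, 135 and 224 kb. Several summits were called in 0.879% of the weakest class and in 14.3% of the strongest.

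DND-41-only regions had a median distance of 108 kb to the nearest region of all 6 lines (quartiles 32.4 and 327 kb), and 142 of 1428 (9.94%) were within 10 kb and 25 within 1 kb. A further 236 (16.5%) had no such region within 500 kb. DND-41 regions shared with 1 other line lay as far away, at a median of 108 kb. The median was 75.6, 69.0 and 57.6 kb for regions of 3, 4 and 5 lines, and from one region of all 6 lines to the next it was 51.4 kb. The share within 10 kb varied little with sharing, from 9.48% for regions of 2 lines to 12.1% for those of 4. The number of regions of all 6 lines within 500 kb on each side was 3 in the median around DND-41-only regions and 5 around all DND-41 regions.

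In these distances DND-41 stood within the range of the other lines. Their line-only regions had median distances of 75.4 kb in TALL-1, 96.6 kb in KOPT-K1, 110 kb in MOLT-4, 116 kb in HBP-ALL and 208 kb in CCRF-CEM, on either side of the 108 kb of DND-41. Regions of any other line were nearer. The median DND-41-only region lay 15.3 kb from a region of another line, against 15.2 kb for TALL-1 and 15.5 kb for KOPT-K1, the lines with similar numbers of members. Measured to each list singly, the nearest interval lay at a median of 29.0 kb in CCRF-CEM, 36.7 kb in KOPT-K1, 34.1 kb in HBP-ALL, 49.0 kb in TALL-1 and 36.9 kb in MOLT-4. The longest and the shortest of these lists gave the shortest and the longest distance, and no affinity of the members to one line is read from them.

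The regions that DND-41 alone lacked had a shorter median distance to shared sites than DND-41-only regions. Their median distance to a region of all 6 lines was 62.7 kb (20.7 and 161 kb), 32 of 221 (14.5%) were within 10 kb, and 19 were more than 500 kb away. Lacking regions are held by 5 lines, however. For DND-41 regions held by 5 lines the median was 57.6 kb and the share within 10 kb 11.8%, so a shorter distance was not particular to the lacking set. With lists cut to equal lengths the share within 10 kb was 7.84% for lacking and 8.36% for DND-41-only regions, so the order of these shares turned, while the medians kept theirs, at 85688 and 125054 bp. The median for the regions lacking in each other line alone ran from 43.2 kb in CCRF-CEM to 92.2 kb in TALL-1, and DND-41 lay between HBP-ALL (61.7 kb) and MOLT-4 (68.7 kb). From the lacking region to the nearest DND-41 region of any kind the median was 39.8 kb. A DND-41 region was present within 10 kb of 48 of them (21.7%) and within 1 kb of 5, and 53 (24.0%) had none within 100 kb. That last share ran from 12.3% in CCRF-CEM to 23.5% in KOPT-K1, with TALL-1 above DND-41 at 32.1%.

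**Figure D3:**
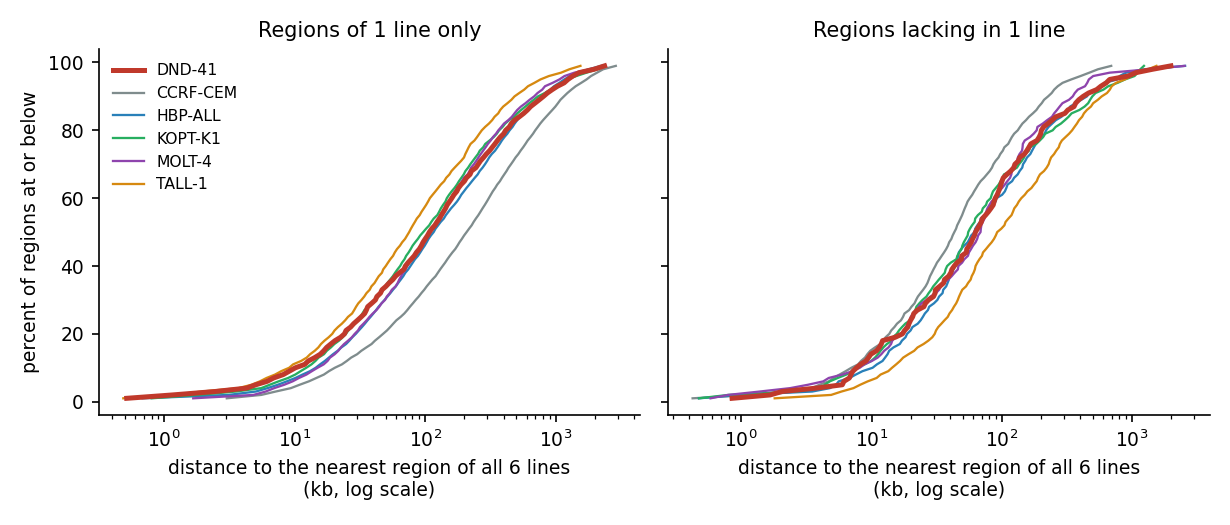
Cumulative share of line-only regions (left) and of regions lacking in 1 line (right) by distance to the nearest region of all 6 lines, in kb on a log scale, 1 curve per cell line from the 1st to the 99th percentile. At the median the DND-41 curve, drawn thick, lies at 108 kb on the left, between TALL-1 at 75.4 kb and CCRF-CEM at 208 kb, and at 62.7 kb on the right, between CCRF-CEM at 43.2 kb and TALL-1 at 92.2 kb; the curves cross elsewhere.

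Most members stood more than 50 kb from the next, and the share that an even spread would place in groups was not computed. The median distance from a DND-41-only region to the next was 321 kb, close to the 323 kb of TALL-1 and the 354 kb of KOPT-K1, whose counts were similar. Chained at gaps of at most 50 kb, 1182 members stood alone, 93 chains held 2, 16 held 3 and 3 held 4. These chains took up 246 members (17.2%), against 15.8% in TALL-1 and 18.8% in KOPT-K1. Lacking regions were sparser still, with a median spacing of 3371 kb.

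The tightest group of 4 lay on chromosome 2 at 162813207 to 162869307, with pileups of 26, 17, 17 and 15 tags, and the same 56.1 kb held 1 region of all 6 lines and 1 more region shared with DND-41. The second, on chromosome 8 at 16281085 to 16354768, had pileups of 9, 10, 18 and 15 tags and lay 749 kb from the nearest region of all 6 lines. Its span held 2 regions of other lines, 1 of CCRF-CEM and 1 of MOLT-4. The third group of 4, on chromosome 1 at 192443398 to 192550001, was interspersed with 6 other regions, 5 of them with a DND-41 interval. Of the 16 groups of 3, the 2 with the shortest span are given here. That on chromosome 4 at 90602104 to 90630635 had pileups of 38, 24 and 19 tags, with no region of another line in its 28.5 kb. Its nearest region of all 6 lines was 152 kb away. The one on chromosome 1 at 234659024 to 234680428 also enclosed no region of another line, but ended 234 bp from a region of all 6 lines, and its pileups were 18, 8 and 11 tags. Groups of members were thus found both beside shared sites and far from any.

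Among the 12 strongest DND-41-only regions, 5 lay on chromosome 5, which held 103 of all 1428 members. Their pileups ran from 38 to 82 tags, and 8 of the 12 intervals were at least 700 bp wide, above the 696 bp median of DND-41 intervals in regions of all 6 lines. Only 2 of them had a region of all 6 lines within 10 kb, and 9 had none within 100 kb. The strongest, on chromosome 5 at 96528446 to 96529238, had 82 tags over a local background of 5.90, a 12.0-fold enrichment in the authors' list. It lay 8.59 kb from a region of all 6 lines, at which DND-41 had 61 tags and CCRF-CEM, KOPT-K1, HBP-ALL, TALL-1 and MOLT-4 had 75, 76, 55, 48 and 41. In these tags, which are not scaled for depth here or at the loci below, DND-41 was in the middle of the 6 at that neighbour. At the member itself no other list held an interval. Another DND-41-only region lay 14.8 kb away.

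The second strongest was isolated. On chromosome 7 at 26903868 to 26904737 DND-41 had 70 tags over a background of 4.76. The nearest region, 178 kb away, was an HBP-ALL interval. The nearest DND-41 region lay at 285 kb and the nearest region of all 6 lines at 572 kb. The third, on chromosome 16 at 60893 to 61129, was the narrowest of the 12 at 237 bp and had the highest fold, 17.9, over a background of 1.24 tags, near the lowest background in the list, 1.14. It lay 42.3 kb from a region of all 6 lines, where DND-41 had 37 tags and the others had 30, 40, 33, 65 and 43 in the same order.

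Further strong members on chromosome 5 lay at 15499917 to 15500817 (47 tags), 35617542 to 35618301 (43), 143191571 to 143192563 (40) and 21341389 to 21342283 (38). Those at 15499917 and 143191571 had a region shared by DND-41 and HBP-ALL as their nearest neighbour, at 12.6 and 12.0 kb. For the one at 35617542 the nearest region of another line was 120 kb away. On chromosome 3, a member at 29195266 to 29195583 had 40 tags and lay 17.6 kb from another DND-41-only region and 12.5 kb from a region of every line but KOPT-K1. Its nearest region of all 6 lines, 804 kb away, had 104 tags in DND-41, 145 in CCRF-CEM and 33 to 74 in the remaining lines.

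On chromosome 3 at 142839962 to 142840588 a member of 66 tags stood on a local background of 10.5, the highest of the 12, and only 664 bp from a region of all 6 lines. At that neighbour DND-41 had 63 tags and CCRF-CEM, KOPT-K1, HBP-ALL, TALL-1 and MOLT-4 had 45, 23, 49, 38 and 31. DND-41 was thus highest at that neighbour in tags not scaled for depth. The same held on chromosome 6 for the neighbour of the member at 122160012 to 122160453, which had 43 tags itself. The nearest region of all 6 lines, 120 kb away, had 45 tags in DND-41 and 14 to 27 in the other lines, and the nearest region of any kind, at 9.01 kb, was another DND-41-only one. The remaining 2 of the 12 were on chromosome 4 at 66603183 to 66604071 (48 tags, with the nearest region of another line at 66.8 kb) and on chromosome 7 at 110174005 to 110174969 (50 tags, with the nearest at 136 kb). In all, 264 members (18.5%) had no region of another line within 50 kb, and 5 of the 12 strongest were among them.

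Wide members were not always strong. The widest DND-41-only interval, on chromosome 9 at 22005119 to 22006295, measured 1177 bp with 3 summits but reached only 19 tags, and a KOPT-K1 region lay 2163 bp from it. The next, on chromosome 2 at 8040133 to 8041127, was 995 bp wide with 12 tags and ended 277 bp from a MOLT-4 region. The next in width, at 993 and 965 bp, were the strong members on chromosomes 5 and 7 named above. The fifth, on chromosome 7 at 111330426 to 111331364, was 939 bp wide with 16 tags.

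The share of DND-41 regions that were DND-41-only differed severalfold between chromosomes. It was 13.4% on chromosome 21 (28 of 209), 12.3% on chromosome 3 (152 of 1239), 12.1% on 4, 11.9% on both 2 and 18 and 10.9% on 5, against 8.04% over all chromosomes. The lowest share was 1.89%, on chromosome 19 (15 of 793), followed by 3.55% on 15, 3.57% on 17, 4% on 22 and 4.47% on 20. Chromosome 2 held the most members, 181 or 12.7% of them (exact 95% interval 10.99% to 14.5%), and 8.59% of all DND-41 regions. Towards the ends members were few. Within 5 Mb of the outermost region of a chromosome lay 7.42% of DND-41-only regions, 13.1% of the lacking ones and 11.7% of all DND-41 regions.

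On 8 chromosomes DND-41 stood outside the range of the other lines. Every chromosome has a highest and a lowest line, so any line can stand outside the others on some chromosomes by chance. The number of such chromosomes was not counted for the other lines, and the 8 are not read as peculiar to DND-41. For each line, the share of its line-only regions on a chromosome was divided by the share of all its regions there. For DND-41 this ratio was 1.48 on chromosome 2 and 1.53 on chromosome 3, above the highest of the other 5 lines, 1.17 and 1.24. It was also above them, at 1.49 against at most 1.46, on chromosome 18, and at 1.044 against at most 1.027 on chromosome X. Below the lowest of the others stood chromosome 15, at 0.442 in DND-41 against at least 0.600, and chromosome 20, at 0.557 against 0.630. Chromosome 8 had 0.771 against 0.976 and chromosome 10 had 0.870 against 0.890. On the other 15 chromosomes, with 879 members, DND-41 was within the range of the others. The low values on chromosomes 19 and 22 were among these, at 0.235 and 0.498 in DND-41 against 0.0989 to 0.723 and 0.222 to 1.06 in the other lines. With 1 library per line no test of these differences is possible, and on chromosomes X, 18 and 10 the margin over the nearest other line was small.

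Several of these chromosomes also had high or low values in a measure that did not use the members. At regions of all 6 lines the DND-41 pileup was taken as log2 against the mean of the 5 other lines and centred on its median over 9045 regions. Chromosome 3 had a median of 0.28 (quartiles 0.02 and 0.48), chromosome 18 of 0.27 (0.10 and 0.43), chromosome 2 of 0.23 (0.04 and 0.42) and X of 0.17. At the low end, chromosome 15 had −0.29 (−0.51 and −0.10), 20 had −0.23 and 17 had −0.21, although the line-only ratio of chromosome 17 was within the range of the other lines. Chromosomes 8 and 10, below that range, had levels near 0, at −0.07 and −0.05. Both arms shared the level on chromosomes 2 and 3. Split at the widest stretch without regions, the medians were 0.19 and 0.24 on chromosome 2, with 11.4% and 12.1% of DND-41 regions being DND-41-only, and 0.32 and 0.21 on chromosome 3, with 14.2% and 10.6%. Chromosome 4 was uneven, at −0.09 below its gap and 0.17 above it, with 6.98% and 13.7% of DND-41 regions being DND-41-only. Chromosome 17 was uneven too, at 0.08 below its gap and −0.31 above it, and its line-only shares there were 3.21% and 3.70%. Chromosome 21 stood out from this relation, with the highest line-only share and a level of −0.15.

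Over the 23 chromosomes the DND-41 level and the share of DND-41-only regions had a Pearson correlation of 0.70 and a Spearman correlation of 0.72. Over 201 windows of 10 Mb with at least 20 regions of all 6 lines the values were 0.57 and 0.55. These are descriptions of 1 library in which all windows share the depth of the same 6 lists, and no p-value is given. With the windows ordered by level into 3 classes of 67, 3.85% of DND-41 regions were DND-41-only in the lowest (212 of 5511), 6.44% in the middle and 10.6% in the highest (450 of 4250). The lacking share was 2.54%, 2.34% and 2.16% in the same classes. Its correlation with the level was −0.49 (Pearson) and −0.45 (Spearman) over the 23 chromosomes, and −0.10 and −0.18 over the windows. The relation of the line-only share to the level was not peculiar to DND-41. Over the same kind of windows the Spearman correlation was 0.78 in CCRF-CEM, 0.57 in KOPT-K1, 0.40 in TALL-1, 0.10 in MOLT-4 and −0.11 in HBP-ALL. For the lacking share it was farther from 0 in every other line than the −0.18 of DND-41, from −0.30 in KOPT-K1 to −0.47 in MOLT-4.

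Windows of high DND-41 level also had fewer shared regions, with 29.1 regions of all 6 lines per window in the highest class, 36.8 in the middle and 50.4 in the lowest. The line-only share was taken apart by local density, in chromosomes picked after their values were seen. Where 0 to 2 regions of all 6 lines lay within 500 kb, 15.7% of DND-41 regions on chromosomes 2, 3, 18 and X were DND-41-only, 6.56% on chromosomes 15, 17 and 20, and 13.1% on all chromosomes. With 3 to 8 such regions the shares were 10.1%, 3.29% and 7.27%, and with 9 or more they were 4.58%, 3.07% and 3.43%. The low set rested on 17, 30 and 11 members in these classes. The regions of all 6 lines set the density and also count among the DND-41 regions by which the members were divided. A fall of the share with density was therefore partly set in advance and is not read as a result. The shares in the window classes have the same limit. As the sets were chosen by these values, a gap between them was set in advance too and is not read as a result. Chromosome 17 was in the low set although its ratio was within the range of the other lines. Chromosomes 8 and 10, below that range, were left out. The part of the DND-41 level in the gap was not tested.

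**Figure D4:**
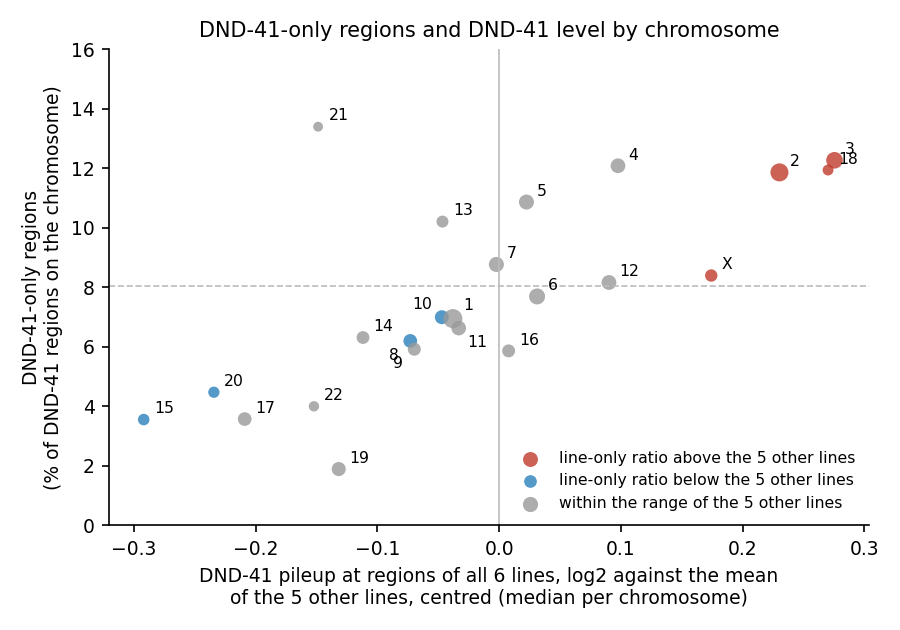
Each point is a chromosome, with its area growing with the number of DND-41 regions. The horizontal axis is the median DND-41 pileup at regions of all 6 lines, log2 against the mean of the other lines, and the vertical axis the percentage of DND-41 regions that are DND-41-only, with a dashed line at the 8.04% of all chromosomes. Chromosomes 2, 3 and 18 lie at the upper right and 15, 17 and 20 at the lower left, while chromosome 21 lies high on the left.

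Close to individual members the level moved in the same direction. At the 609 different regions of all 6 lines that were nearest to a DND-41-only region and within 100 kb of it, the DND-41 level had a median of 0.15 (quartiles −0.11 and 0.38), and 64.5% were above 0. At the 140 neighbours of lacking regions the median was −0.13 (−0.32 and 0.19), and 37.9% were above 0. The other lines had medians of 0.02 to 0.27 beside their own line-only regions and of −0.32 to −0.09 beside those they lacked. DND-41 stood within both ranges.

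The regions that DND-41 lacked were of middling height in the other lines. Their median pileup was 19 tags in CCRF-CEM, 21 in KOPT-K1, 24 in HBP-ALL, 23 in TALL-1 and 22 in MOLT-4, which is 0.523 times the median at regions of all 6 lines in TALL-1 and 0.583 to 0.615 times in the remaining lines. In 61 of the 221 (27.6%) at least 1 of the 5 lines had a −log10 p under 7. All 5 lines ranked above the median of their own list at 24 of them. TALL-1 was the lowest-ranked of the 5 at 67 regions, CCRF-CEM at 46, KOPT-K1 at 45, HBP-ALL at 33 and MOLT-4 at 30. The merged width had a median of 693 bp, against 880 bp for regions of all 6 lines, though a region of all 6 lines joins the intervals of 1 line more.

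On chromosomes, the lacking share of regions present in all 5 other lines was 4.73% on chromosome 17 (20 of 423, exact interval 2.91% to 7.21%) and 3.97% on chromosomes 4 and 8, against 2.38% overall. It was 0.741% on chromosome 18 (1 of 135), 1.14% on chromosome 16 (4 of 350), 1.23% on 22 (2 of 162) and 1.30% on 5 (6 of 462). For chromosome 17 the other lines ran from 0.739% to 19.2%, so DND-41 was within their range. The counts per chromosome are small, and apart from chromosome 17 each of the 23 intervals includes the overall share.

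The lacking region with the highest ranks elsewhere was on chromosome 13 at 103046421 to 103047286, where CCRF-CEM, KOPT-K1, HBP-ALL, TALL-1 and MOLT-4 had 115, 124, 97, 99 and 59 tags. The lowest of them, MOLT-4, still exceeded 93.9% of the intervals in its list. The nearest DND-41 region was 197 kb away. At the nearest region of all 6 lines, 201 kb away, DND-41 had 100 tags against 114, 99, 83, 130 and 64 in the same order of lines. The centred DND-41 level at that neighbour was −0.05.

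The second was on chromosome 2 at 167231924 to 167232939, with 185, 77, 77, 67 and 64 tags in the same order and the nearest DND-41 region 193 kb away. DND-41 had 132 tags at the nearest region of all 6 lines, 421 kb away, above all but CCRF-CEM with 192. This region also began a stretch of 918 kb, up to 168149983, in which 4 consecutive recurrent regions, called in 4 or all of the 5 other lines, lacked a DND-41 interval. The stretch held 19 merged regions, with 0 of DND-41, 17 of CCRF-CEM, 3 of KOPT-K1, 6 of HBP-ALL, 6 of TALL-1 and 7 of MOLT-4.

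On chromosome 8 at 93977416 to 93978631 the other lines had 136, 129, 104, 55 and 100 tags, and neither DND-41 nor the set of all 6 lines had a region within 774 kb. On chromosome 5 at 114505187 to 114506400 the values were 207, 128, 58, 53 and 97 tags, and DND-41 had 40 tags at the shared region 91.5 kb away, as had KOPT-K1. On chromosome 4 at 159689650 to 159690772 they were 70, 74, 64, 54 and 82 tags. There the shared region 44.6 kb away was lowest in DND-41, at 27 tags against 31 to 46. Over the 10 named regions the DND-41 level at the nearest region of all 6 lines ran from −0.63 to 0.16 and was below 0 at 6, so neighbours of both kinds occurred.

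The other 5 of the 10 lay on chromosome 2 at 133025636 to 133026391, chromosome 4 at 6271119 to 6271910, 13 at 95953082 to 95954393, X at 49686793 to 49687715 and chromosome 7 at 75623368 to 75624274. Their lowest pileup among the other lines was 58, 35, 43, 28 and 30 tags in this order. The pileup of MOLT-4 at the first was not recovered, and the lowest there is that of the 4 remaining lines. DND-41 regions were nearest at 14.01 kb, for the one on chromosome 7, and farthest at 560 kb, for the one on chromosome X.

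**Figure D5:**
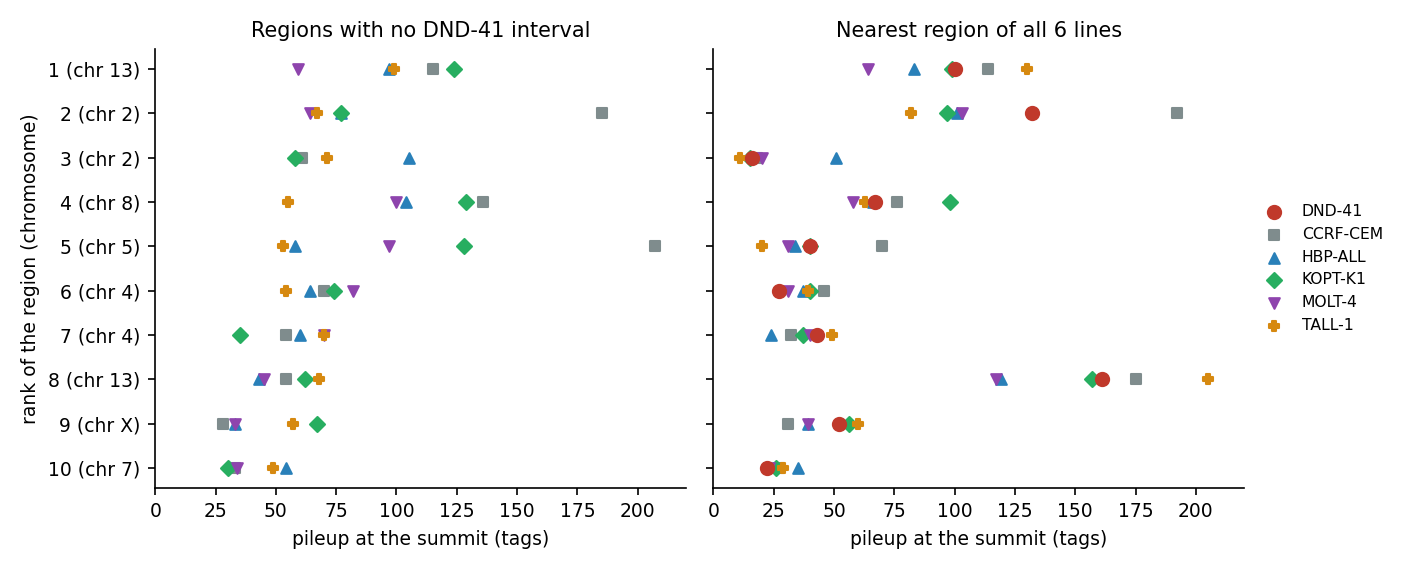
Summit pileup in tags, by line, at the 10 regions lacking in DND-41 alone that ranked highest in the other lists (left) and at the nearest region of all 6 lines (right), ordered by rank from the top; 1 MOLT-4 value at rank 3 was not recovered. DND-41 is absent on the left by definition, and on the right it lies among the other lines in 8 of 10 rows, with 100 tags in the first and the lowest values, 27 and 22 tags, in the sixth and the last.

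Most absences of DND-41 from recurrent regions were single, and the number of runs that an even spread would give was not computed. Of 12395 recurrent regions, 943 (7.61%) held no DND-41 interval, and they formed 715 single absences, 91 runs of 2, 11 of 3, 2 of 4 and 1 of 5. The run of 5 lay on chromosome 4 at 99529566 to 99610610 and none of its regions was lacking in DND-41 alone, because each was also absent in 1 other line. Its 81.0 kb held 0 DND-41 regions, 5 of CCRF-CEM, 6 of KOPT-K1, 3 of HBP-ALL, 3 of TALL-1 and 5 of MOLT-4. A run of 4 on chromosome 1 at 61515667 to 61623608 was of the same kind, with 0 regions in DND-41 and 4, 5, 1, 3 and 4 in the other lines in that order.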

How the data were processed

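Peak lists of 6 libraries were used, 1 per cell line. Per the submitters' processing notes, Bowtie2, Picard, SAMtools and MACS2 2.1.1.2016030 were used with build hg19; their order and settings, and whether reads were moved to the Tn5 insertion point, are not given in these sources. For each summit the deposited lists hold a score, a fold ratio over local background, and p-values and q-values, both as −log10. Read totals are not known here.

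Lines of the same interval were joined with the strongest summit kept, and intervals overlapping by at least 1 bp were merged across lists. Distances run from edge to edge. A pileup is the whole number of tags at which fold and p-value of a summit fit together, taking fold as tags over background with 1 added to each and a Poisson upper tail for the p-value, within 0.001 of the deposited −log10 p; 99.96% to 99.99% of intervals per list gave one. On simulated data 100% of pileups and all planted members were recovered. The pileups were simulated with the same formula, and the planted regions lay far apart. The simulation therefore checks the code only, and gaps or overlaps of a few bp were not simulated. Shares have exact (Clopper-Pearson) intervals at 95%. With 1 library per line no test was made.

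The members, lists and rules were chosen with earlier results of these data known. Named regions are the 12 strongest and 5 widest DND-41-only regions, the 5 strongest without another line within 50 kb, the 5 largest chains, the 10 lacking regions with the highest lowest rank and the longest runs. The window, density and neighbour comparisons were added after first values were seen. Planned gene lists were not used, as the reference tables are of build GRCh38. Alternatives were another joining distance and overlap, stricter thresholds, equal list lengths and leaving out each line. Tools were scipy 1.17.1, pandas 2.3.3, numpy 2.4.6, matplotlib 3.10.9 and Python 3.11.15.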

Additional observations from a re-analysis of the deposited data

Results flagged for a closer look

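Outside chromosomes 1 to 22 and X, which the comparisons left out, the DND-41 list held 71 lines, and 31 of these were mitochondrial, with 28 to 34 mitochondrial lines in the other 5 lists. They were flagged as signal in data that no comparison used, and their source was not tested.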

How the results depend on the processing

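The number of DND-41-only regions was 1428 and stayed within 1.5 times of it when intervals up to 500 bp apart were joined (1351), when a shared call needed an overlap of at least 50% of the narrower interval (1581), with equal list lengths (1412) and at a −log10 p of at least 7 (1234). It was 945 at a −log10 p of at least 10 in every list and 462 with that bound in DND-41 only. Leaving out 1 other line gave 1665 to 1902. The 221 regions that DND-41 alone lacked became 78 when all 5 other lines had to reach 10, and 294 to 479 without 1 other line, with 432 without CCRF-CEM and 479 without TALL-1; fewer lines make both rules easier to meet. The other alternatives gave 153 to 222. At a −log10 p of at least 10 in every list the median distance of DND-41-only regions to those of all 6 lines was 143163 bp, 6.35% were within 10 kb, the median width was 367 bp, the median spacing 523991 bp and 13.1% lay within 50 kb of another. With equal list lengths the first 3 were 125054 bp, 8.36% and 311 bp. For lacking regions, the share within 10 kb was 9.78% at a −log10 p of at least 10 and 7.84% with equal lengths, and the median distance with equal lengths was 85688 bp. A higher threshold leaves fewer and wider intervals by construction. The share on chromosome 2 ran from 11.9% to 12.9%, and of the shares of all 23 chromosomes 1 moved outside its interval under 1 alternative. No paired analysis was possible because each line has 1 library. Depth limits what a missing call means, and no replicate shows how many calls a second library of the same line would change.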
